A study of Mus musculus with 4 samples.

Results

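KAP1 summits that were found in replicate 2 alone and that lay at the ends of protein-coding genes are described here. A summit is the position of highest enrichment within a peak. Members were taken from the replicate 2 list on chromosomes 1 to 19, had no replicate 1 summit within 200 bp, and lay within 1000 bp of the lowest or highest coordinate of a coding gene. There were 3215 of them, among 79515 summits of replicate 2 and 88377 of both lists. The members were thus chosen by the summit positions in both lists, and their absence from replicate 1 is not a result.

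The study precipitated chromatin of mouse regulatory T cells (Tregs) with an antibody against KAP1 and sequenced it (ChIP-seq). They had been sorted from C57BL/6 mouse spleen and grown in culture over 2 weeks. The labels used here give no age, sex or genotype beyond the strain. There were 2 KAP1 samples and 2 input samples made without antibody from the same kind of cells, and the inputs were not analysed here. Replicate 1 had 8862 summits, and read depth is not recorded in either list. Whether the replicates are separate cultures or animals is not stated in the labels, so a difference between them may be technical. Summits do not measure expression, so the cell type could not be checked against markers.

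KAP1, encoded by Trim28, is a corepressor that carries no sequence-specific DNA-binding domain. KRAB zinc finger proteins bring it to DNA, where it recruits the methyltransferase SETDB1 and HP1 proteins, which mark and bind heterochromatin. It is best known for silencing retrotransposons and for sitting on the zinc finger genes themselves, and it has also been mapped to promoters of active genes. A Treg is a CD4 T cell that depends on the transcription factor Foxp3 and restrains other immune cells.

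Promoter sequences are shown first because the members inside promoter windows fell into kinds that differ in sequence. No sequence was read at the other members. A promoter window is 250 bases before to 50 bases after a start of transcription, from RefSeq (GRCm38.p6, the assembly of mm10, on which the summits are given). Windows were listed for 16457 of the 20665 coding genes on chromosomes 1 to 19, and 277 of the 3215 member summits lay inside one. The 6 with the highest replicate 2 scores are printed 5′ to 3′ on the strand of the gene, with capitals on the bases within 10 of the summit. The score is the peak caller's −log10 of significance, either a p-value or a q-value, and the lists do not say which. The windows are chr16:8672104-8672403 (minus strand) for Carhsp1, chr7:122021149-122021448 (minus) for Gga2, chr7:75308337-75308636 (minus) for Sv2b, chr5:104434861-104435160 (plus) for Spp1, chr10:19356289-19356588 (plus) for Olig3 and chr10:81575037-81575336 (plus) for Tle2.
Carhsp1: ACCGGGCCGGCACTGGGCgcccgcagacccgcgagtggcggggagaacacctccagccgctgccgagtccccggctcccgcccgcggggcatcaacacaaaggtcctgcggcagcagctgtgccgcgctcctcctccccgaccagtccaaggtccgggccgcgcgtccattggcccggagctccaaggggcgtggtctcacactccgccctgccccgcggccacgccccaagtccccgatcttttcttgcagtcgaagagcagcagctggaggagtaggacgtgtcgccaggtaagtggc
Gga2: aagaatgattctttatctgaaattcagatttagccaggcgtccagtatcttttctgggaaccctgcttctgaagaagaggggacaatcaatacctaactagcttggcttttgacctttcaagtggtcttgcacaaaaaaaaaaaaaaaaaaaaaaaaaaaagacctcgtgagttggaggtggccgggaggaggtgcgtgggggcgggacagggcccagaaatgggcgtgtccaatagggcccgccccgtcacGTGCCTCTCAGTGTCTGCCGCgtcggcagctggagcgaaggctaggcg
Sv2b: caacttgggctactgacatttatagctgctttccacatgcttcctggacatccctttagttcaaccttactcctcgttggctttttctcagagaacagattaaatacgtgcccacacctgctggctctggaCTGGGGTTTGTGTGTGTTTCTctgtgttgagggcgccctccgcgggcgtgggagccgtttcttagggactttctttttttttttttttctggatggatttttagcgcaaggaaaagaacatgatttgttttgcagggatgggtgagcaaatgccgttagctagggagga
Spp1: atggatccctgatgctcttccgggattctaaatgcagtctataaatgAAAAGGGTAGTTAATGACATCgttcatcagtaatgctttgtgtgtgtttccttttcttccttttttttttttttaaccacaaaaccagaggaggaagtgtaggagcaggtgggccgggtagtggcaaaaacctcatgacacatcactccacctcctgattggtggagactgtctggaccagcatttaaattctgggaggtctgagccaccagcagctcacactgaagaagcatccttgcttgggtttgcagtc
Olig3: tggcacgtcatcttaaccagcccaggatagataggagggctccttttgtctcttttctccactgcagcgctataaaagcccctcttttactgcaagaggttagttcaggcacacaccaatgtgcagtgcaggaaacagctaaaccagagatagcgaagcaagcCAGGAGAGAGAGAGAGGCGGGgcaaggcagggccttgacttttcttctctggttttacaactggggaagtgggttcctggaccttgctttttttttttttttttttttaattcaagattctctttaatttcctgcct
Tle2: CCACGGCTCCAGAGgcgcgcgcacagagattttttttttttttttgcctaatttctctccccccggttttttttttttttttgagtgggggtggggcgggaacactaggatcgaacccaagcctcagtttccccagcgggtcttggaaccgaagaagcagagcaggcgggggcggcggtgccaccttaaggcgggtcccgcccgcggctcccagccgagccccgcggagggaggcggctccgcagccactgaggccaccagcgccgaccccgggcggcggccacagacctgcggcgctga

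Among these 6 windows, 5 hold an unbroken run of A or T of 14 bases or more. In Gga2, which encodes an adaptor of Golgi vesicle traffic, the run is 28 bases of A and the summit, with a score of 35.9, lies 12 bp after the start and 102 bp from the run. In Olig3, a transcription factor gene of the neural tube, a run of 21 T lies 77 bp from a summit with a score of 32.1. Spp1, the osteopontin gene, has a run of 14 T at 50 bp from its summit (score 32.6). In Sv2b, a synaptic vesicle protein gene, the longest run is 15 T at 63 bp (score 33.0), and in Tle2, a Groucho-family corepressor gene, it is 16 T at 26 bp (score 29.6). Carhsp1, which encodes a cold-shock domain RNA-binding protein, had the highest score of the 6, 44.3, but its summit lies 243 bp before the start, near the edge of the window, and the longest run in the window is 4 bases.

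For comparison, the windows of 2 of the members with the lowest scores among those that hold the letters of an ETS site (CCGGAAG on either strand) and of the shared summit with the highest score among those inside a listed window are printed in the same way. These 2 members were chosen after their values were seen. The windows are chr15:82127672-82127971 (plus) for Ccdc134, chr14:59597910-59598209 (minus) for Cdadc1 and chr3:94443086-94443385 (plus) for Mrpl9.
Ccdc134: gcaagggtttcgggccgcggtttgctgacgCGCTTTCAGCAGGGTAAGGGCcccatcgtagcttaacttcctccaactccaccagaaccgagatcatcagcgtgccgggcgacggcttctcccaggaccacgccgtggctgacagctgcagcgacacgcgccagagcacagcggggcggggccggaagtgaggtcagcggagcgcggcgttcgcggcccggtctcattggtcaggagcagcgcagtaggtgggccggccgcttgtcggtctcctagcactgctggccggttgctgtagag
Cdadc1: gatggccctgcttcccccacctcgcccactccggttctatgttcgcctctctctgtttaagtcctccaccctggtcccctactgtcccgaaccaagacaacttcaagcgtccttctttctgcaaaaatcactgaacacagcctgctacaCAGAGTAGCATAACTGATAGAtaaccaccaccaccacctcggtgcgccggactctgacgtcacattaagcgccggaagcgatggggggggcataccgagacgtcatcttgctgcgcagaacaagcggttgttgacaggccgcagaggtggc
Mrpl9: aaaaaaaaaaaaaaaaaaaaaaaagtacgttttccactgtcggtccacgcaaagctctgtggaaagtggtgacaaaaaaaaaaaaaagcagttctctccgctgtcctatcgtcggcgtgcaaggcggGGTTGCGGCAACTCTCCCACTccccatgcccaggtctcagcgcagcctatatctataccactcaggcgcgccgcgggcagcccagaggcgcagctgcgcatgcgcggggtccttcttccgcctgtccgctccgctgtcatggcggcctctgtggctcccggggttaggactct

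The low-scoring windows have no such run. Ccdc134, with a score of 3.42, has 31 CpG dinucleotides and a longest run of 3 bases, and Cdadc1, a cytidine deaminase domain gene with a score of 3.23, has 17 CpGs and a longest run of 5. Mrpl9, a mitochondrial ribosomal protein gene whose replicate 2 summit has a replicate 1 summit at 9 bp and a score of 122.1, has a run of 24 A at 114 bp from the summit and a shorter run of A nearer to it.

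Runs of A or T were then counted in all 20085 listed windows of coding genes, with a minimum of 12 bases that was chosen after these sequences were seen. Windows with a member held a run in 112 of 303 cases (37.0%, Wilson 95% interval 31.7 to 42.5%), against 573 of all 20085 windows (2.85%). The share followed the score. It was 16 of 20 windows (80.0%, 58.4 to 91.9%) for members with a score of 20 or more, 75 of 103 (72.8%, 63.5 to 80.5%) for members at or above the median of the replicate 2 list, and 11 of 144 (7.64%, 4.32 to 13.2%) for members with a score under 6.5. Intervals here and below cover counting error only, and windows and genes are not replicates, so no test was made between these shares.

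Windows with a shared summit, meaning one that both lists have to within 200 bp, showed the same order with lower shares. A run was present in 98 of 158 of them (62.0%, 54.3 to 69.2%) at scores of 20 or more and in 1 of 121 (0.826%, 0.146 to 4.53%) at scores under 6.5. Over all scores, 119 of 589 windows with a shared summit had one (20.2%). The next counts use listed windows of any gene, coding or not. Replicate 2 only summits that were not at a coding gene end had a run in 117 of 183 such windows (63.9%). On the same windows it was 122 of 332 for members (36.7%) and 133 of 676 for replicate 2 summits with a replicate 1 partner (19.7%). Replicate 1 summits with no replicate 2 summit within 200 bp had a run in 1 of 100 windows (1.00%, 0.177 to 5.45%), an interval that includes the 3.21% of all 31396 windows of any gene. All replicate 1 summits together had a run in 134 of 782 windows (17.1%). Replicate 1 scores were not matched to those of replicate 2 in these counts.

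Read the other way, windows with a run of 15 bases or more held a replicate 2 summit more often than those with shorter runs. Among 126 windows with a run of 20 bases or more, 28 held a member (22.2%) and 40 a shared summit (31.7%), and 53.97% held either kind. With runs of 15 to 19 bases, 59 of 209 windows held a member (28.2%) and 55.02% held either kind. With 12 to 14 bases, 25 of 238 held a member (10.5%) and 20.2% held either kind. None of 246 windows with a longest run of 10 or 11 bases held a member (Wilson upper bound 1.54%), and 191 of 19266 with shorter runs did (0.991%). A shared summit was in 11 of those 246 windows (4.47%) and in 459 of the 19266 (2.38%). The median member score rose over the classes that held members, from 5.64 in windows with runs under 10 bases to 8.31, 11.1 and 14.9 at 12 to 14, 15 to 19 and 20 or more. Runs of C or G showed no such excess: 3 of 303 windows with a member had one of 10 bases or more (0.990%), against 2.66% of all windows.

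The summit lay on a fixed side of the run. Of 97 member summits in windows with a single run, 94 were 5′ of the run on the strand where it reads T, 2 were 3′ of it and 1 was inside it. The median position was 49 bp to the 5′ side, with quartiles at 67 and 31 bp. Runs outside the promoter window were not seen. The side followed the run and not the chromosome strand, since the count was 50 of 51 where the plus strand reads T and 44 of 46 where it reads A. For shared summits it was 99 of 101, with a median of 40 bp. Per the labels, the libraries were made with a DNA SMART ChIP-Seq kit. As background, that chemistry adds a T tail to single-stranded DNA, to which a poly(dA) primer anneals. The part of the library preparation in these summits was not tested, and neither was whether a summit beside a run marks KAP1, since the inputs were not analysed here. That limit holds for every score given here, those of the highest-ranked members included.

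**Figure D1:**
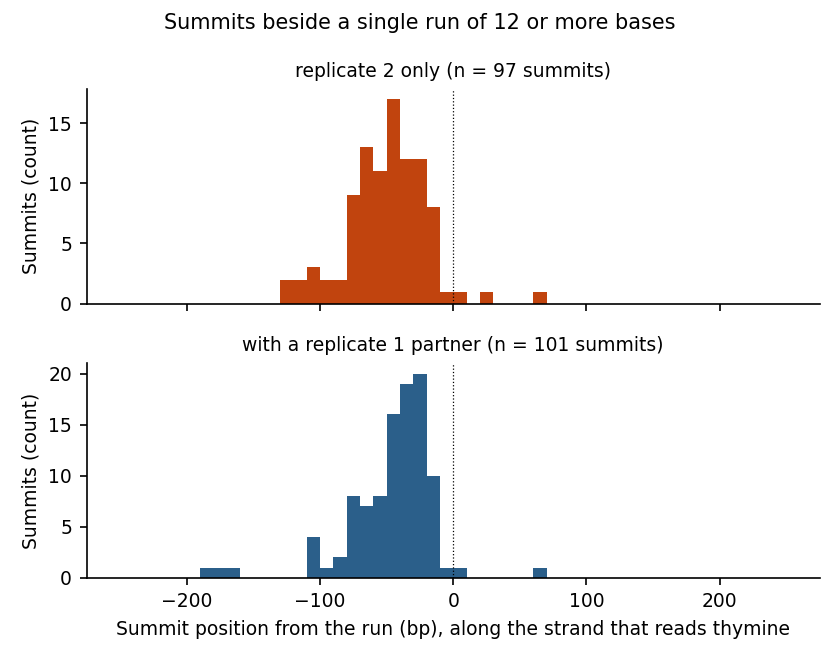
Position of replicate 2 summits relative to the only run of 12 or more adenine or thymine bases in the promoter window (x axis, bp, negative values are 5′ of the run on the strand that reads thymine; y axis, number of summits per 10 bp). In both panels nearly all summits lie on the negative side, 94 of 97 for replicate 2 only and 99 of 101 with a replicate 1 partner.

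Promoter windows that held members with low scores carried another feature. The ETS letters CCGGAAG, the core of sites bound by factors such as ETS1 and GABPA, were present in 46 of 144 windows with a member score under 6.5 (31.9%, 24.9 to 39.9%) and in 9 of 103 windows with a member at or above the list median (8.74%, 4.66 to 15.8%). All listed windows had them in 11.9% of cases. Windows with a shared summit had them in 34.7% at scores under 6.5 and in 29.3% at or above the list median. The low-scoring member windows were also richer in CpG, with a median of 20 CpGs against 11 in those at or above the list median and 14 over all windows, and 4.86% of them had 3 CpGs or fewer, against 23.1% of all windows. A letter match is a description of the window and not evidence of binding.

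Over all scores, the ETS letters were in 20.1% of member windows (16.0037 to 25.01%), 31.4% of windows with a shared summit and 11.9% of all windows. The GC box letters GGGCGG were in 51.8% of member windows, 53.3% of windows with a shared summit and 47.0% of all windows. The letters GCATGCG, the core of an NRF1 site, were in 7.59% (5.11 to 11.1%), 9.68% and 4.51%, and the E-box CACGTG in 8.25%, 10.4% and 7.89%. The TATA box TATAAA was in 9.90%, 5.09% and 12.7%, and CCAAT in 41.6%, 36.3% and 38.1%. The letters TGACGTC, most of a cyclic AMP response element, were in 3.63%, 5.77% and 3.92%. The intervals for ETS and NRF1 in member windows thus lay above the share of all windows. All motifs were searched on both strands, and their matches can overlap.

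**Figure D2:**
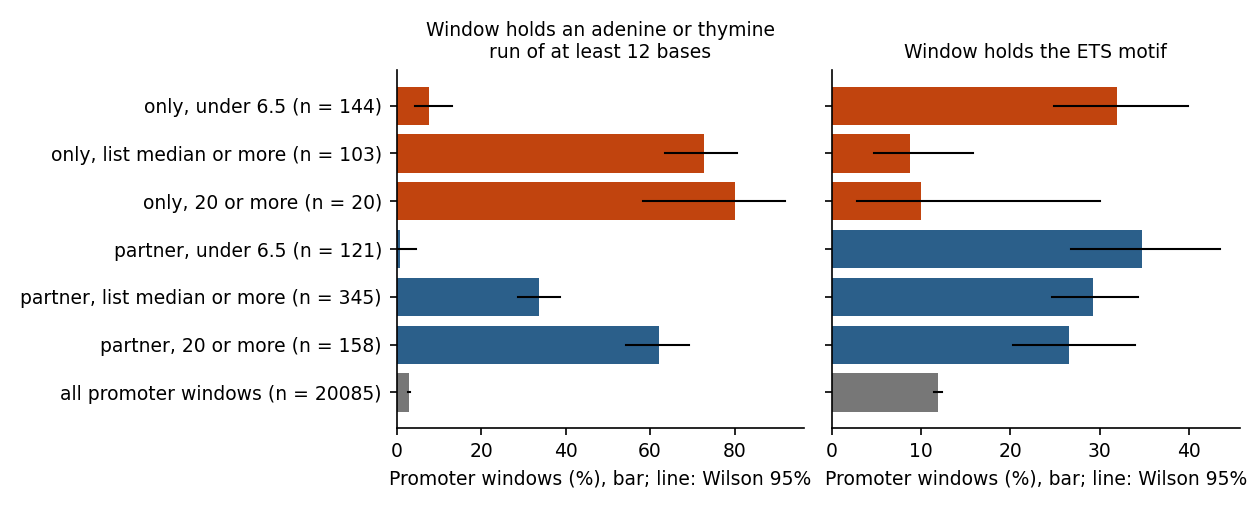
Share of promoter windows (x axis, percent) that hold an adenine or thymine run of at least 12 bases (left) or the ETS motif (right), for windows with a replicate 2 only summit (orange), a summit with a replicate 1 partner (blue) and all windows (grey), by replicate 2 score. Classes by score overlap, lines are Wilson 95% intervals, and the replicate 2 only windows go from 7.64% to 80.0% with a run as the score rises.

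Scores of the members were close to those of other replicate 2 only summits and lower than those of shared summits at gene ends. The median was 8.54 (95% interval of the median 8.31 to 8.82, range 2.07 to 59.9), against 8.31 for the 68125 replicate 2 only summits elsewhere and 12.8 for the 1718 shared summits at gene ends. A score of 20 or more was reached by 136 members (4.23%), by 2.02% of replicate 2 only summits elsewhere and by 33.0% of shared end summits. At scores under 6.5, 736 of 13448 replicate 2 only summits lay at a gene end (5.47%, 5.10 to 5.87%). The share was lower between 6.5 and 12 (3.89%, 3.71 to 4.07%) and higher again between 12 and 20 (5.17%, 4.79 to 5.59%) and from 20 upward (8.98%, 7.64 to 10.5%). Gene ends were thus more frequent at both extremes of the score than in its middle. Over all scores, 4.51% of the 71340 replicate 2 only summits were at a gene end, against 22.5% of the 7640 with a replicate 1 partner.

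**Figure D3:**
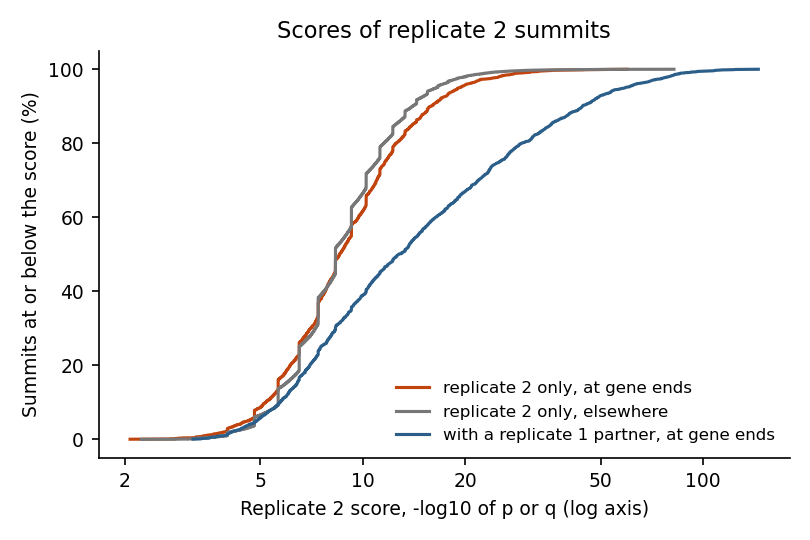
Cumulative share (y axis, percent) of replicate 2 summits by score (x axis, −log10 of p or q, log axis) for replicate 2 only summits at gene ends, replicate 2 only summits elsewhere, and end summits with a replicate 1 partner. The first 2 curves nearly coincide, with medians of 8.54 and 8.31, and the third is shifted to higher scores, with a median of 12.8.

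Members lay nearer to replicate 1 summits than replicate 2 only summits elsewhere did. This distance is not independent of the rule, which places members at gene ends. Of summits with a replicate 1 partner, 22.5% lay at such ends, against 4.51% of replicate 2 only summits. The nearest replicate 1 summit was at a median of 50598 bp, against 142335 bp elsewhere, and 540 members (16.8%) had one within 10 kb, against 8.16%. Only 104 members (3.23%) had one between 200 and 1000 bp away. The members closest to that limit lay at Commd4, Hsd11b1 and Tmem123, 223, 287 and 292 bp from a replicate 1 summit, with scores of 5.64, 9.11 and 7.13. The end summits just within 200 bp, which are not members, lay at Thrap3, Nsd3 and Lgals3bp at 161, 153 and 136 bp, with scores of 4.60, 3.34 and 4.88. At the other limit, members at exactly 1000 bp from a gene end lay at Lbx2, Adcy7 and Morf4l1 (scores 7.26, 13.99 and 8.54), and summits at 1001 bp lay at Akap1, Fam110b and Tmprss4 (6.59, 6.27 and 12.4).

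Strand was known for the nearest gene of 2567 members, which separates the start from the far end of the gene. Here and below, the start is the outermost coordinate of the gene on its 5′ side. It can differ from the listed starts of the promoter windows. The start was the nearer end for 1475 members (57.5%, 55.5 to 59.4%) and the far end for 1092. For shared end summits the start took 1192 of 1359 (87.7%, 85.9 to 89.4%). A listed start of any gene lay within 1000 bp of 87.3% of the members at starts and of 94.6% of the shared summits there. The share of starts among members was 63.9% at scores under 6.5 (60.0 to 67.7%), 50.4% between 6.5 and 12 (47.8 to 53.1%), 63.1% between 12 and 20 and 83.3% from 20 upward (95 of 114 members, 75.4 to 89.1%). Members at starts and far ends had almost equal median scores, 8.56 in each case, and differed in the upper range, where 6.44% and 1.74% reached 20. Inside the span of the gene lay 1275 members (39.7%), and 40.1% of shared end summits.

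Around far ends the members were no denser than replicate 2 only summits farther away. Among 7569 genes of at least 20 kb and known strand, far ends had 39.4 replicate 2 only summits per kb and 1000 genes within 500 bp, against 39.8 at 5 to 10 kb outside the gene and 39.2 at 5 to 10 kb inside it. Starts had 54.8, against 43.1 outside and 48.5 inside, a ratio of 1.27 to the outside. The same ratio for shared summits was 8.41 at starts and 0.576 at far ends. Against 5 to 10 kb inside the gene, the ratios for shared summits were 9.40 and 1.10. Split by score, the ratio to the outside for replicate 2 only summits at starts was 2.42 under 6.5 and 0.884 between 6.5 and 12. It was 1.18 between 12 and 20, and 2.76 from 20 upward, where it rests on 21 summits. At far ends it was 1.13, 1.05 and 0.809 in the first 3 classes, and from 20 upward only 2 summits lay within 500 bp.

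At finer scale, members showed a shallow crest before the start and a dip after it. In these bins a summit counts for every gene end it lies near, so 1 summit can count more than once. Over all 16457 genes of known strand, each of the 2 bins of 100 bp before the start held 116 replicate 2 only summits, the first bin after it held 91, and the 4 bins from 100 to 500 bp after it held between 42 and 51. The bins from 500 to 1000 bp before the start held 80 to 108. Shared summits reached 206 in the last 100 bp before the start. Within 200 bp of the start lay 149 of 383 start members with scores under 6.5 (38.9%) and 138 of 689 with scores of 6.5 to 12 (20.03%). At far ends 1 bin stood out, the first 100 bp beyond the gene, which held 105 replicate 2 only summits. The last 100 bp inside held 54, the next 100 bp beyond 51, and the bins from 200 to 1000 bp beyond 62 to 85. Scores in the bin that stood out were mostly low to middling, with 26 under 6.5, 65 from 6.5 to 12, 13 from 12 to 20 and 1 from 20 upward. No sequence of far ends was used here.

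**Figure D4:**
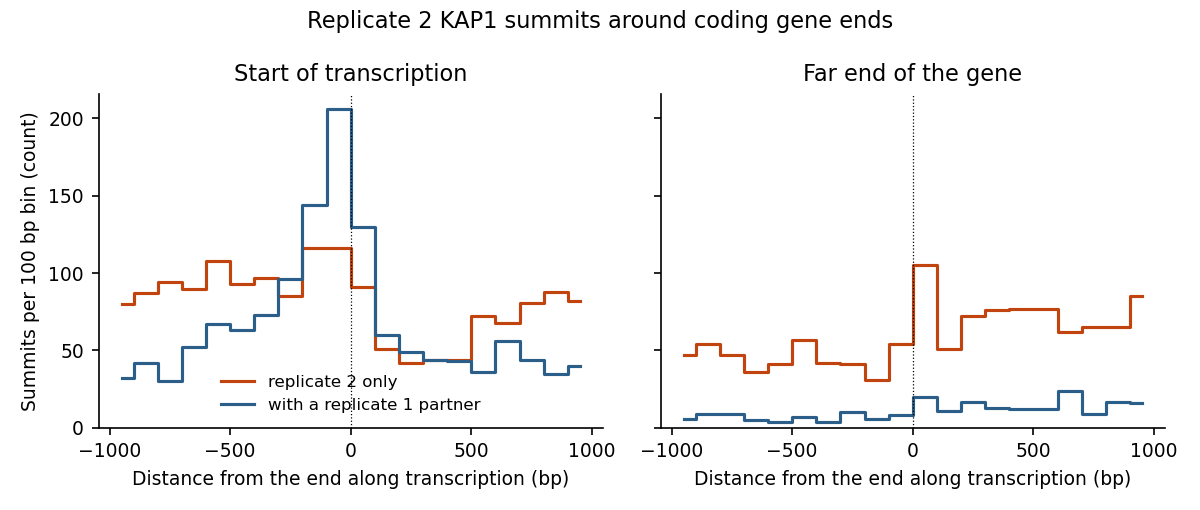
Number of replicate 2 summits per 100 bp bin (y axis) by distance along transcription from the start (left) and far end (right) of coding genes (x axis, bp, negative values are upstream). A summit counts for every gene end it lies near. Replicate 2 only summits (orange) vary between 42 and 116 per bin around starts, and summits with a replicate 1 partner (blue) peak at 206 in the bin before the start.

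The 3215 members touched an end of 3231 coding genes, since 277 members (8.62%) lay at ends of more than 1 gene. That is 15.6 percent of the 20665 coding genes, and the share for shared summits was 8.94 percent. Starts of genes with known strand were touched in 9.49 percent of cases by members and in 7.78 percent by shared summits, and far ends in 7.06 and 1.32 percent. A single member was present at 2972 genes, 2 at 252 and 3 at 7. Both kinds of summit were found at the ends of 274 genes, which is 8.48% of genes with a member and 14.8% of genes with a shared end summit. Summits at the starts of 2 genes were 104 members (3.23%) and 112 shared end summits (6.52%), and the strands of the 2 genes were not compared. By chromosome, the share of coding genes with a member ran from 12.1% on chromosome 14 to 18.3% on chromosome 15. With genes ranked by length into 4 classes of nearly equal number, the shortest, up to 5927 bp, had a member in 11.1% of cases, and the other 3 classes in 16.01 to 17.9%.

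The member with the highest score, 59.9, lay 583 bp beyond the far end of Coro2b, an actin-binding coronin gene, at position 62418907 of chromosome 9. The next, with 56.4, lay 555 bp inside the start of Mdm4, which encodes an inhibitor of p53, at position 133030032 of chromosome 1. Map6, a microtubule-stabilising protein gene, had a member with a score of 50.2, 566 bp within the gene. Taco1, a translational activator of mitochondrial cytochrome c oxidase, had one 765 bp inside its start (44.3). These scores lie above 99 percent of the replicate 2 list, and the nearest replicate 1 summits were 36401, 8169, 41394 and 18471 bp away. None of these 4 genes had a shared summit at an end.

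After Carhsp1 came Chrm1, a muscarinic acetylcholine receptor gene (42.1), Crem, a cyclic AMP-responsive repressor gene (39.8), Sarm1, the gene of an NAD-cleaving enzyme of axons (38.9), and Cdh6, a cadherin gene (36.5). Below Gga2 followed Ubxn4, an endoplasmic reticulum degradation factor gene (35.8), Golt1b, a Golgi transport gene (35.5), Tspan17, a tetraspanin gene (34.4), and Taf3, which encodes a subunit of the general transcription factor TFIID (34.2). Of the 15 highest members, 9 had the start as the nearest end, 2 the far end, and 4 lay at genes of unknown strand. The Tspan17 summit, 67 bp outside its start, also lay 576 bp outside Eif4e1b. Some of these genes had another, lower-scoring member: Tspan17 one of 14.8, Carhsp1 one of 5.64, Cdh6 one of 5.55 and Crem one of 3.79.

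Of the 7 genes with 3 members, the 6 with the highest scores are described, and their members scored between 4.80 and 14.4. Tbc1d23, a Golgi tethering protein gene, carried all 3 at its start, 49 bp inside and 457 and 913 bp outside, with scores of 6.42, 6.51 and 9.06. Pus1, a pseudouridine synthase gene, had 1 at its start (13.99) and 2 beyond its far end (9.26 and 8.16), and Mpp6 had the same arrangement (11.96, 10.4 and 8.69). Ralgapa2, which encodes a GTPase-activating subunit for Ral, had 1 at its start (4.80) and 2 beyond its far end (8.33 and 8.25). Ppp6r2, a phosphatase regulatory subunit gene, had 3 members (14.4, 6.93 and 6.86) and 2 shared summits at its ends. Ripk2, the kinase gene of NOD receptor signalling, had 3, each at least 734857 bp from a replicate 1 summit (10.04, 5.95 and 5.87).

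Gene groups were counted over 26 lists, each read against the 15.6 percent of all coding genes with a member. Since absence from replicate 1 chose the members, the number of genes with a shared end summit is given beside theirs. In 16 lists the share was above that of all genes. The interval of the share lay wholly above 15.6 percent in 4 lists and wholly below it in 4, and it included that value in the rest. Under 8 alternative settings it stayed wholly on its side in all 8 for olfactory and vomeronasal receptor genes, in 7 for mitochondrial ribosomal protein genes, and in 2 to 5 for the other 5 lists.

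The list of amino acid transport and mTORC1 genes also holds regulators such as Tsc1 and the mTORC2 subunit gene Rictor. Its genes had a member at an end in 8 of 24 cases (33.3%, 17.97 to 53.3%), and a shared summit in 4. Slc43a1, a neutral amino acid transporter gene, had one 572 bp before its start and 1925 bp from the nearest listed start (14.7). Rraga, a Rag GTPase gene, had one 412 bp inside its far end (13.5). Slc3a2, the heavy chain of several transporters, had one 612 bp inside its far end (10.6) and a shared summit 163 bp outside its start with a score of 53.6. The others were Mlst8 (7.21), Rictor (6.505), Slc7a6 (6.03), Tsc1 (5.64) and Slc38a1 (4.51), so that most members of this group had scores below the list's median.

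Mitochondrial ribosomal protein genes had a member in 23 of 78 cases (29.5%, 20.5 to 40.4%) and a shared summit in 20 (25.6%), with 4 genes in both. At starts of known strand there were 18 genes and at far ends 7. Mrpl14 led with a summit 20 bp outside its start and a score of 31.0. Mrpl51 and Mrpl22 followed with 17.9 and 17.8 at their far ends, and the lowest was Mrpl21, 2 bp inside its start, with 4.70. Respiratory chain and ATP synthase genes had a member in 22 of 89 cases (24.7%, 16.9 to 34.6%) and a shared summit in 12, and of those with a member 15 were at starts. Their scores ran from 3.54 at Ndufaf4, a complex I assembly factor gene, to 18.5 at Ndufs3, a complex I subunit gene. Ndufab1, the mitochondrial acyl carrier protein gene, had a member 357 bp inside its start (13.7), 501 bp from a replicate 1 summit, beside a shared summit 148 bp outside it.

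Hox genes, which set position along the body axis and lie in 4 clusters, had a member in 11 of 39 cases (28.2%, 16.5 to 43.8%) and no shared summit at any end (Wilson upper bound 8.97%). Hoxc10 had the highest score (24.5), followed by Hoxd11 (17.8) and Hoxa5 (12.96), and the lowest was Hoxa11 (5.64). Where strand was known, 5 Hox genes had the member at the far end and 2 at the start. The nearest replicate 1 summits were between 136980 and 995884 bp away. Neighbouring Hox genes share their surroundings and are not separate observations.

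Numbered Zfp genes, many of which encode the KRAB zinc finger proteins that bring KAP1 to DNA, had a member in 73 of 386 cases (18.9%, 15.3 to 23.1%) and a shared summit in 44 (11.4%). Of the 324 with known strand, 22 had a member at the far end (6.79%, against 7.06 percent of all genes) and none a shared summit there (1.32 percent of all genes). Starts had a member at 35 and a shared summit at 33. The far-end scores were 30.5 at Zfp346, 505 bp beyond the gene, 22.6 at Zfp948, 213 bp inside it, and 20.5 at Zfp287, 874 bp inside it, and the other 19 lay between 4.0003 and 17.01. Zfp626 had the highest score at a start, 21.6, 639 bp inside the gene.

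KAP1 partners in silencing had a member in 5 of 23 cases (21.7%, 9.66 to 41.9%) and a shared summit in 2. Dnmt3a, a de novo DNA methyltransferase gene, had one 574 bp before the outermost coordinate that serves as its start (27.6). The nearest listed start was 5995 bp from that summit. Cbx3, the HP1 gamma gene, had one 366 bp beyond its far end (13.6), and Chd4, the NuRD remodeller gene, one 1 bp inside its far end (10.6). Trim24, a relative of KAP1, had members at both ends (10.2 and 4.41), and Atf7ip2 one of 5.58. Trim28 itself had none at an end and 5 replicate 2 only summits within 20 kb. Imprinted genes, expressed from 1 parental copy, had a member in 5 of 32 cases (15.6%) and a shared summit in 2. Nnat (17.0) and Igf2r (10.9) had the highest scores.

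In the regulatory T cell signature, 5 of 40 genes had a member (12.5%, 5.46 to 26.1%), while 10 had a shared summit. Gata3, a transcription factor gene of T cells, had one 648 bp inside its far end (19.6). Stat5a and Stat5b, which encode the transcription factors downstream of the interleukin-2 receptor, are head to head and shared 1 member, 120 and 227 bp outside their starts (18.2), and Stat5a had another inside its far end (15.4). Il1rl1, the interleukin-33 receptor gene, had a member 758 bp inside its start (16.6), 24356 bp from the nearest replicate 1 summit. The gene also had a shared end summit, which was thus not close to this member. Ikzf4, the Eos gene, had a member of 12.96. Il2ra and Ctla4 had a shared summit at an end, with replicate 2 scores of 78.3 and 9.08, and no member. Ikzf2 and the amino acid transporter gene Slc1a5 had neither, with 13 and 5 replicate 2 only summits within 20 kb, and Foxp3 lies on X, outside the chromosomes used.

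T cell identity genes had a member in 5 of 26 cases (19.2%) and a shared summit in 8 (30.8%). The members were at Gata3, Tcf7 (13.1), Runx3 (11.2), Runx1 (9.26) and Bcl11b (7.14). Tcf7 encodes the transcription factor TCF1, and the Bcl11b member lay 439 bp from a replicate 1 summit. Among genes of conventional T cells, 5 of 23 had one (21.7%) and 6 a shared summit (26.1%). Il4, the cytokine gene of type 2 helper cells, had one 940 bp inside its start, 2230 bp from a replicate 1 summit (22.0). Ifng, the interferon gamma gene, had one 60 bp before its start (16.2), in a window with a run of 15 bases of A or T at 21 bp. Tcf7 and Id3 (12.7) were among the others. Cell cycle genes had a member in 5 of 32 cases (15.6%), led by E2f1 (14.4) and Cdk1 (13.2), and a shared summit in 7 (21.9%).

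Ribosomal protein genes had a member in 14 of 79 cases (17.7%, 10.9 to 27.6%) and a shared summit in 23 (29.1%). Rpl10a led with 22.2, 650 bp inside its far end, followed by Rpl27 (13.9), 603 bp before its start and 641 bp from a replicate 1 summit. Translation factors had a member in 14 of 68 cases (20.6%) and a shared summit in 15, with the highest member scores at Eif4e1b (34.4), Eef1d (18.97) and Eif5b (15.6). Proteasome genes had a member in 10 of 48 cases (20.8%), led by Psma4 (17.1), and a shared summit in 13 (27.1%). Splicing genes had a member in 12 of 65 (18.5%), led by Snrpb (16.2), and a shared summit in 13. For tRNA synthetase genes it was 6 of 34 (17.6%), led by Kars (20.9), with a shared summit in 7 (20.6%). In the T cell, cell cycle, ribosomal protein, translation, proteasome, splicing and tRNA synthetase lists, more genes thus had a shared summit than a member.

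Genes of sensory receptors had few members. Olfactory receptor genes had one in 36 of 1100 cases (3.27%, 2.37 to 4.50%), led by Olfr1358 (31.2), 597 bp inside its far end, and vomeronasal receptor genes in 4 of 352 (1.14%, 0.443 to 2.89%), with a highest score of 9.26 at Vmn1r5. Histone genes had one in 5 of 77 (6.49%, 2.81 to 14.3%), led by H1f10 (15.5), and chemokine and chemokine receptor genes in 3 of 53 (5.66%, 1.94 to 15.4%), led by Cxcr5 (12.8). Protocadherin genes had one in 8 of 67 (11.9%), led by Pcdhgc5 (19.8), and keratin genes in 5 of 53 (9.43%), led by Krt10 (19.5). Shared end summits were at 2 olfactory, 1 vomeronasal, 6 histone, 3 chemokine, 1 protocadherin and 1 keratin gene.

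The lists of B cell, myeloid, neuronal and erythroid genes had members at shares whose intervals include that of all genes. Of 11 B cell markers, 1 had a member (9.09%, 1.62 to 37.7%), Ebf1 (18.2), 221 bp before its start. Of 14 myeloid markers, 3 did (21.4%, 7.57 to 47.6%): Csf1r (12.3), Elane (9.26) and Itgam (7.40). Of 18 neuronal genes, 3 did (16.7%, 5.84 to 39.2%), all at far ends: Syt1 (11.6), Tubb3 (11.2) and Gad1 (7.40). Of 9 erythroid genes, Tfrc (11.6) and Klf1 (9.66) did (22.2%, 6.32 to 54.7%). No B cell, myeloid or neuronal gene had a shared end summit, with upper bounds of 25.9, 21.5 and 17.6%, and 1 erythroid gene, Tfrc, had one. Where the summit lay in a listed window, a run of A or T was present: 17 bases for Ebf1, at 190 bp from the summit, 17 for Elane at 41 bp and 15 for Klf1 at 65 bp. The part of these runs in the summits was not tested.

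**Figure D5:**
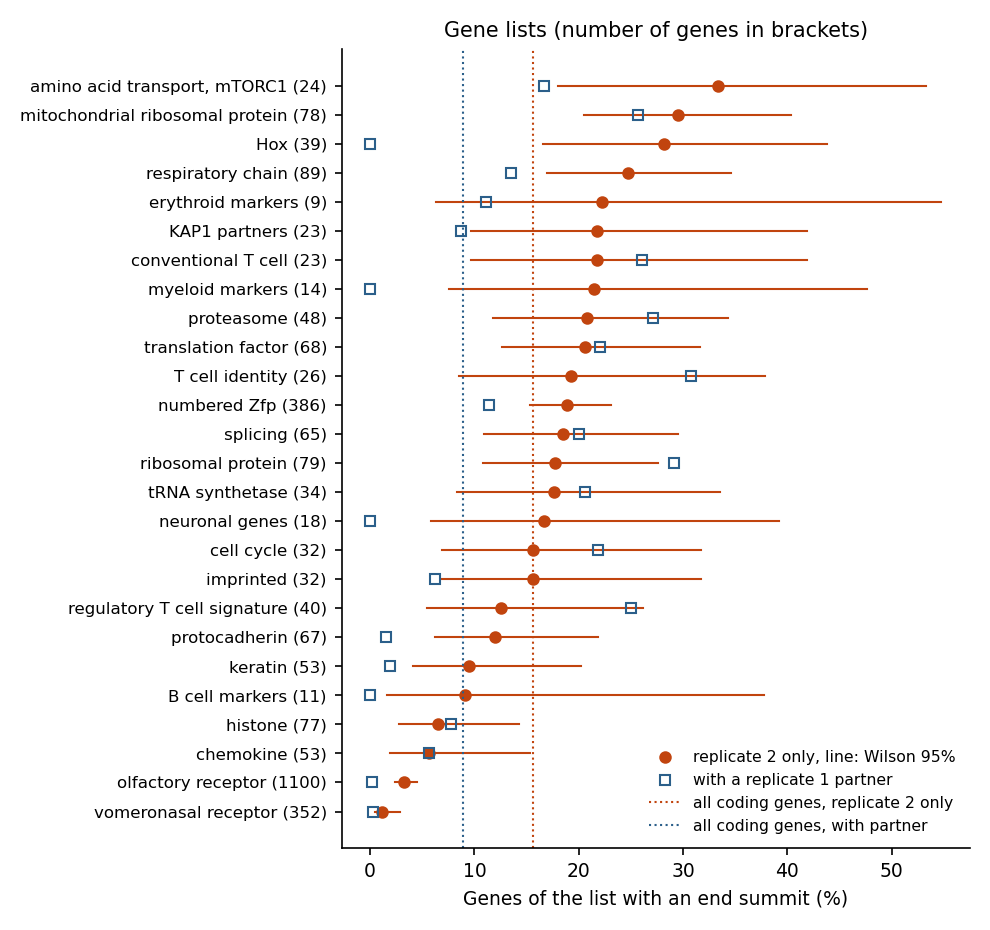
Share of genes in each of 26 lists (y axis, number of genes in brackets) with a replicate 2 only summit at an end (orange points, lines are Wilson 95% intervals) and with a shared end summit (blue squares), in percent (x axis). Dotted lines mark the shares over all coding genes, 15.6 and 8.94 percent, and the Hox, B cell, myeloid and neuronal lists have no shared end summit.

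Some members also lay near genes of noncoding RNA. Within 1000 bp of an end of a long noncoding RNA gene were 226 members (7.03%), 11.1% of shared end summits and 2.41% of replicate 2 only summits elsewhere. The rule places members at coding gene ends and the summits elsewhere away from them, so these shares are not independent of it. Ends of microRNA genes had 10 members and ends of transfer RNA genes 4 (0.124%), against 11 shared end summits at transfer RNA genes (0.640%). The nearest other replicate 2 summit was at a median of 6952 bp from a member and 9482 bp from a replicate 2 only summit elsewhere, and 288 members (8.96%) had one within 1000 bp. That spacing is not independent of the rule either. Genes with a member and no shared end summit had a shared summit elsewhere in their span in 383 of 2957 cases (12.95%), against 10.3% of genes with no replicate 2 end summit, and their median length was 21736 bp against 16328 bp.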

How the data were processed

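KAP1 ChIP-seq summits of 2 samples of mouse regulatory T cells were used, and the 2 input samples, which have no list of their own here, were not analysed. Per the labels, sonicated chromatin was size-selected to 150 to 400 bp. The submitters' processing notes name MACS2 2.2.1, Bowtie2 2.2.9 and Picard 2.1.1 and the mm10 build. The sources used here give no settings, controls, thresholds or filters. The deposited score of each summit is on a −log10 scale, of either p or q, and was used only to describe, rank or filter summits within a list. Each sample has its own list, and depth is unknown.

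Gene coordinates and promoter windows came from RefSeq (GRCm38.p6, 21900 coding genes). Strand came from the promoter table, which is not complete and held none of chromosome 18. A member was given to its nearest gene end, and a summit counted for every gene whose end lay within 1000 bp. Counts, shares with Wilson 95% intervals and medians were computed in Python 3.11.15 with pandas 2.3.3 and scipy 1.17.1, and no test was made, because there is 1 list on each side. The computations were tested on simulated positions.

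The members and the 26 gene lists were chosen with earlier results of these data known. Of the listed names, 7 were not coding genes of the table or had no match. Named genes are those of the 15 highest member scores, up to 3 per list by score, 6 genes with the most members (ties by highest score), the members nearest the limits of the rule, and Trim28, Foxp3, Ikzf2, Slc1a5, Il2ra and Ctla4. Some genes under this rule are not reported here. Other members of small lists were named after their values were seen. The A or T runs and their positions were added after the sequences were seen. Alternatives were partner distances of 50 and 1000 bp, end windows of 500 and 2500 bp, higher scores, chromosome X, and replicate 2 alone.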

Additional observations from a re-analysis of the deposited data

How the results depend on the processing

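Depth is not recorded, so a summit missing from replicate 1 may have been below its threshold. No paired analysis was possible because the result comes from no test and the inputs have no list. Of 83 recomputed values, 46 stayed within the interval of the main value (for counts, within 1.5 times of it). The main values are in the report. Runs of at least 15 and 20 bases were in 28.7% and 9.24% of member windows.

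With a partner distance of 50 bp, 16.2% of coding genes had a member, with 1000 bp 15.1%, and with X added 15.1%. An end window of 500 bp gave 1634 members, 2.29% of replicate 2 only summits, 8.18% of genes and 35.6% inside genes. A window of 2500 bp gave 7346, 10.3%, 33.5% and 45.1%. Scores at or above the list median gave 1647 members, 4.81% of summits, 8.35% of genes, a median score of 11.6, a mean GC content of 52.6% in member windows, runs in 72.8% and ETS letters in 8.74%. The highest scores alone, as many as replicate 1 has summits, gave 409 members, 7.25% of summits, 2.15% of genes, a median score of 18.04, 44.0% inside genes, 72.9% at starts, a GC content of 53.8%, runs in 80.0% and ETS letters in 6.67%. Without KAP1 replicate 1, meaning all replicate 2 end summits, there were 4933 summits (6.25%) at 23.2% of genes, with a median score of 9.26, 67.9% at starts, a GC content of 57.1%, runs in 25.5% and ETS letters in 28.3%.

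The number of lists above the share of all genes was 13 to 18 under these settings, against 16. In all 8 alternatives Hox, mitochondrial ribosomal protein, respiratory chain, KAP1 partner, T cell identity and tRNA synthetase genes stayed above it, and olfactory, vomeronasal, histone, chemokine and protocadherin genes below it. The amino acid transport and mTORC1 list kept its side in 7 of 8, and the regulatory T cell signature in 3 of 8. The whole interval stayed above the share of all genes in 7 of 8 for mitochondrial ribosomal protein, 5 for Hox, and 4 each for respiratory chain and for amino acid transport and mTORC1 genes. It stayed below in 8 for olfactory and for vomeronasal, 4 for histone and 2 for chemokine genes. With a partner distance of 1000 bp it no longer did so for the respiratory chain list (15.04 to 32.2%, against 15.1%), the amino acid and mTORC1 list (14.9 to 49.2%) or the chemokine list (1.94 to 15.4%).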
